A study of Mus musculus with 6 samples.

Results

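The genes described here carry a cell through mitosis. They are the mitotic cyclins with CDK1 and the CDC25 phosphatases, the mitotic kinases, the spindle checkpoint, the machinery that ends it, and the kinesin motors, together with the proliferation genes Top2a and Mki67. They were picked by gene symbol, and the kinesin pattern took in every listed symbol made of Kif and a number, including motors that carry cargo in cells that are not dividing. It left out the Kifc symbols, so the spindle motor gene Kifc1 belongs to a wider list described further on. Of the 8513 genes and 15905 transcripts of the authors' deposited table, 51 genes with 118 transcripts met these names, while Pttg1 was not found among the listed rows. The measurements are RNA sequencing of B16.F10, an established mouse melanoma line from the C57BL/6 strain, labelled wild type. The simvastatin group had 3.5 µM simvastatin in the medium for 24 h, a dose that the labels describe as the half-maximal inhibitory dose found earlier by the same laboratory, and the control group was left untreated for the same time, with no vehicle named. Each group held 3 samples, called biological replicates in the series text, and all 6 samples carry 1 batch label.

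Entry into mitosis is driven by CDK1 bound to cyclin A or cyclin B, which the CDC25 phosphatases switch on and the WEE1 kinase holds back. Kinesin motors and their partners then build a bipolar spindle, the checkpoint proteins delay anaphase until each chromosome is attached, and the anaphase-promoting complex (APC/C) with CDC20 marks cyclin B and securin for destruction. Most of these genes are transcribed late in the cell cycle, in G2 and mitosis, and their RNA is therefore widely read as a measure of proliferation in tumours. Simvastatin inhibits HMG-CoA reductase, the enzyme that makes mevalonate, the precursor of cholesterol and of the lipid anchors of small GTPases.

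The table gives 1 value for each group and transcript, in a unit not stated in the sources used here, and no value for single samples, so no SD could be computed, the depth is unknown and levels are not compared between genes. All transcripts together summed to 344210 with simvastatin and 394749 in control. All 7 melanocyte markers looked for (Pmel, Tyr, Tyrp1, Dct, Mlana, Mitf and Sox10) were listed, summing to 9365 with simvastatin and 6859 in control. Dct had 3437 with simvastatin and 2307 in control, and Pmel had 2799 with simvastatin and 1893 in control. Tyr alone was lower with simvastatin (50.22, against 53.09 in control), and Sox10 was nearly level (45.03, against 44.15 in control). Of the leukocyte markers 1 of 3 was listed (Cd68, 0.93 with simvastatin and 0.37 in control), and none of the 3 endothelial, 3 epithelial and 3 fibroblast markers was listed.

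RNA of the mitotic genes was lower after simvastatin in every functional group, whereas kinesins classed here as outside the spindle mostly had higher values. A transcript is called here where the authors' adjusted p, printed to 3 decimals, is under 0.05. By that rule 13 transcripts of 12 member genes fell and 1 transcript, of Kif3b, rose. Over all transcripts 0.987% were called lower and 1.11% higher, and over all genes 1.81% had a transcript called lower and 2.03% one called higher. Among the members these shares were 11.02% of transcripts lower and 0.8475% higher. The 13 called lower transcripts had, in the authors' deposited table, folds of 1.64 to 2.22 and adjusted p-values of 0.038 to 0.049, all just inside the threshold. The members just outside it were a transcript of Cdc25c and an assembled transcript of Kif23, both with an adjusted p printed as 0.05 in the authors' deposited table and not counted. The authors' own call reached an adjusted p of 0.2 with a fold of at least 1.5, and it took in 33 member transcripts of 26 genes as lower and 3 transcripts of 3 genes as higher. That call covers 4.37% of all transcripts and 7.52% of all genes as lower, and 5.13% and 8.58% as higher. At an adjusted p under 0.1 there were 27 member transcripts of 22 genes lower and 3 of 2 genes higher, beside 3.76% of all transcripts and 6.78% of all genes lower and 4.02% and 7.18% higher. A Benjamini-Hochberg adjustment recomputed from the printed p-values called 16 member transcripts of 14 genes lower and 2 of 2 genes higher, beside 1.91% of all transcripts and 3.5% of all genes lower and 2.16% and 3.92% higher. These p-values are rounded to 3 decimals, and how many of the added calls come from that rounding was not tested. Without adjustment, 40 member transcripts were lower and 7 higher at p under 0.05, beside 10.2% and 9.42% of all transcripts.

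Adding up the transcripts of each gene gives a total per group, for which no test exists. The member totals summed to 923.4 with simvastatin and 1456 in control, which is 0.2683% and 0.3689% of all values. The total was lower with simvastatin for 41 member genes and higher for 10, while 48.3% of all gene totals were lower and 51.7% higher. It was lower by at least 1.5-fold for 36 members and higher by that much for 2, beside 12.3% and 14.1% of all genes. The median log2 ratio of the member totals was -0.76, against 0.02 for all genes. Without the 11 kinesins classed here as outside the spindle, all 40 remaining totals were lower, with a median of -0.81. That class was drawn up with earlier results of these data known. When each gene was represented by its most abundant transcript, Bub3 turned higher, and Kif7, Kif13a and Kif13b turned lower. In bulk RNA fewer cells in G2 or mitosis and less of these RNAs per cell cannot be told apart. Scaling both groups to the same overall total adds 0.20 to each log2 ratio, which brings the median to -0.56 for the members and 0.22 for all genes and turns the direction of no member total.

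**Figure D1:**
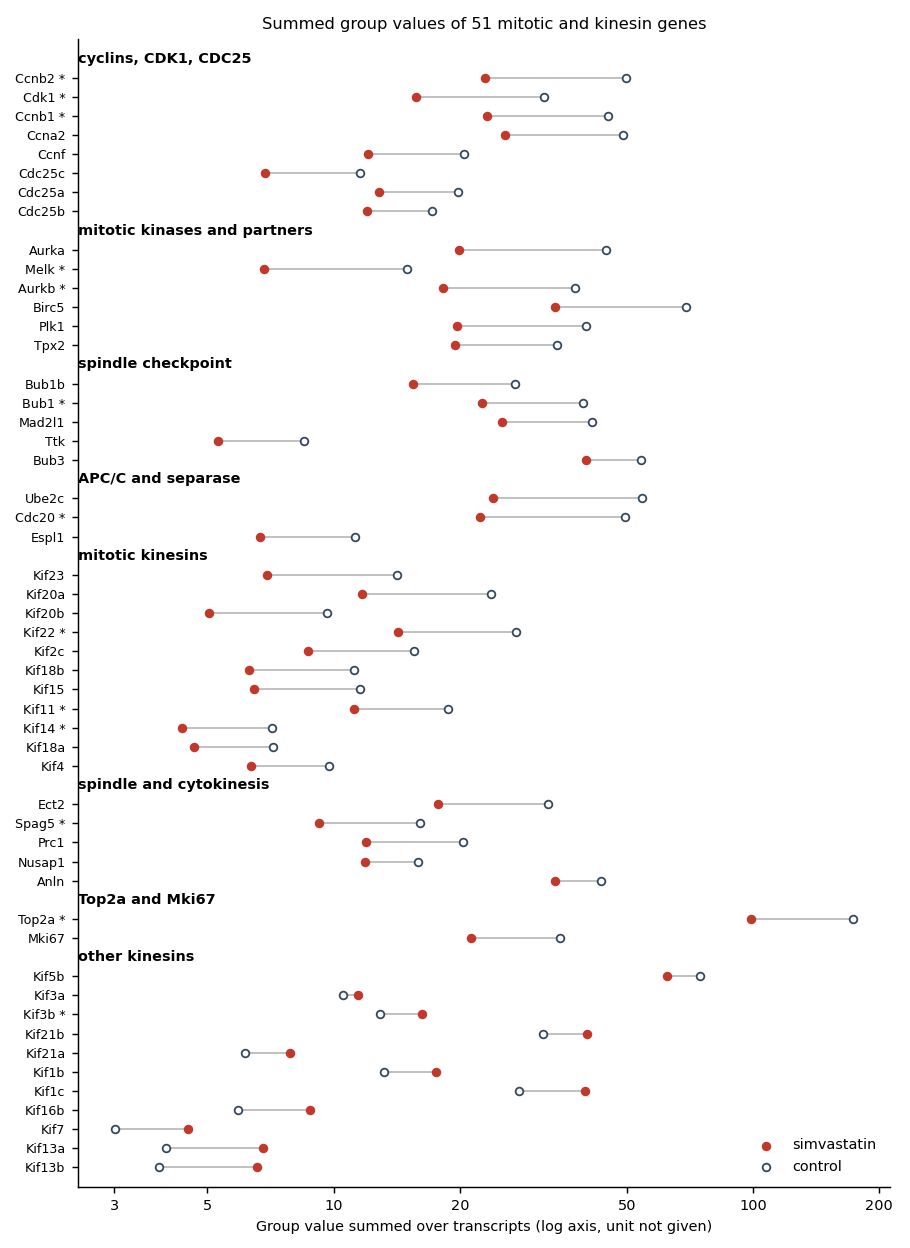
Group values summed over the transcripts of each of the 51 genes (log axis, unit not given), with simvastatin as filled and control as open circles, ordered by function. An asterisk marks a gene with a called transcript. All 40 mitotic genes have the simvastatin circle left of the control circle, and among the other kinesins only Kif5b does.

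**Figure D2:**
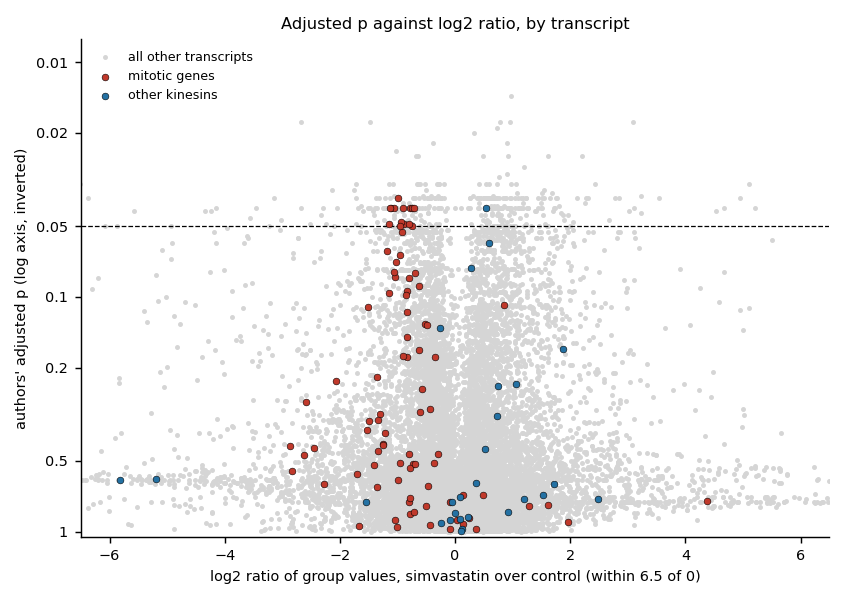
The authors' adjusted p (log axis, inverted) of each drawn transcript against the log2 ratio of its group values, simvastatin over control. Shown are the mitotic genes, the other kinesins and all other transcripts. Transcripts with a value of 0 in either group have no log2 ratio and are not drawn, nor are those beyond the axis limits. The dashed line is an adjusted p of 0.05. The 13 called transcripts of mitotic genes lie together left of 0, and the 1 called transcript of another kinesin, Kif3b, lies right of it.

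Late cell cycle promoters are known for a pair of short elements close to the start site. These are the cell cycle homology region (CHR) and the CCAAT box. The promoters of 5 genes that fell, from the cyclin, APC/C, chromosome and kinesin groups, are shown beside that of Kif3b, which rose. All 5 hold both elements, while Bub1, Ccnb1 and Melk, which also fell, lack the CHR letters and are not shown. The windows are from RefSeq on GRCm38.p6 and run 5′ to 3′ on the gene's strand from 250 bases before the annotated start to 50 after it. Capitals mark the letters searched for on both strands: TTTGAA for the CHR (TTCAAA on the other strand) and CCAAT for the CCAAT box (ATTGG on the other strand). A variant of the CHR, TTTAAA, was searched for too, and no motif overlapped another in the windows shown. The coordinates are chr10:69352863-69353162 for Cdk1, chr9:70421505-70421804 for Ccnb2, chr4:118437294-118437593 for Cdc20 and chr11:99024140-99024439 for Top2a, all on the minus strand. Those on the plus strand are chr19:37376132-37376431 for Kif11 and chr2:153291166-153291465 for Kif3b.
Cdk1: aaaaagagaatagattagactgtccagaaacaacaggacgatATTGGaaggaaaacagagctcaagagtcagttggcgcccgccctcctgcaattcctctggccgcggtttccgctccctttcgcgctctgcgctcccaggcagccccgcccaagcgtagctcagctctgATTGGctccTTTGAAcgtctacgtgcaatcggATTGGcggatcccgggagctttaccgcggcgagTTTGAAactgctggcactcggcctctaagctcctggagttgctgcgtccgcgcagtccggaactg
Ccnb2: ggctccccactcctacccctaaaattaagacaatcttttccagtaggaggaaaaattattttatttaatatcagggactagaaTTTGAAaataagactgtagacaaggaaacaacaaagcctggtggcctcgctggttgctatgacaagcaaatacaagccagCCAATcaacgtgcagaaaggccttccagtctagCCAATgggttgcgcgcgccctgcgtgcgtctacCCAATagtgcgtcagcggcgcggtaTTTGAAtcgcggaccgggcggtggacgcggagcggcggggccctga
Cdc20: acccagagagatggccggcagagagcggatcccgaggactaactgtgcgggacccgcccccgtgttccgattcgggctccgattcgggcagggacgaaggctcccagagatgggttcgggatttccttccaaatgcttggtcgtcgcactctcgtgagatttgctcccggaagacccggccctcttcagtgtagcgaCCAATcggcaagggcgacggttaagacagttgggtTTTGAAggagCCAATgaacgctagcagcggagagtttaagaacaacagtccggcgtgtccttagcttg
Top2a: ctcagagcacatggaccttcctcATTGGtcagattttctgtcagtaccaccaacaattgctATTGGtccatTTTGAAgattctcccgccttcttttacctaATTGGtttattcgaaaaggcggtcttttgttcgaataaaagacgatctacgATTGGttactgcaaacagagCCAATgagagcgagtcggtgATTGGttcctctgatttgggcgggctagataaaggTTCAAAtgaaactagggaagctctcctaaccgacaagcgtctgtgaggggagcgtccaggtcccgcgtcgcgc
Kif11: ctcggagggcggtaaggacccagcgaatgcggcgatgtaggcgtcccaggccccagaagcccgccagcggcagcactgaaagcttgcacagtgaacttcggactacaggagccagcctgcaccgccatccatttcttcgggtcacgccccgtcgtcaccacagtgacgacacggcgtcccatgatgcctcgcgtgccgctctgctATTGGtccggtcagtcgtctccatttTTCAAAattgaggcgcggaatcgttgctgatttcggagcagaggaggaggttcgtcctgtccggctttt
Kif3b: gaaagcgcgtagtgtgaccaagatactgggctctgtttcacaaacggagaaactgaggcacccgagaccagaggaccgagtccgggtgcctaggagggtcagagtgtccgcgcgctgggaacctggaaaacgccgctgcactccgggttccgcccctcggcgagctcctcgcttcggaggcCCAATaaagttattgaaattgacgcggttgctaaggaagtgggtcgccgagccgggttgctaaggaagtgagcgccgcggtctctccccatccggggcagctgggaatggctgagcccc

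The Cdk1 window holds a CHR at -71 and another at -15, counted from the start site as 0 to the motif's first base, with CCAAT boxes at -208, -80 and -48. In Ccnb2 the CHR stands at -167 and 4, with CCAAT boxes at -87, -54 and -21. In Cdc20 there is 1 CHR, at -18, between CCAAT boxes at -53 and -8. Top2a has a CHR at -179 and at -23 and 6 CCAAT boxes, and Kif11 has 1 CHR at -19 and 1 CCAAT box at -45. The Kif3b window has 1 CCAAT box, at -69, and no CHR letters.

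Windows were found for 43 of the 51 genes, among them 35 mitotic genes and 8 other kinesins. They were not found for Kif5b, Kif13b, Tpx2, Cdc25c, Ccna2, Kif20a, Kif21b and Aurkb. The letters TTTGAA were present in 26 of the 35 mitotic genes (74.29%) and in 0 of the 8 other kinesins, and in 20.23% of all 27025 genes with a window. CCAAT was present in 26 of the 35 (74.29%) and in 3 of the 8 (37.5%), and in 41.06% of all genes. Both stood together in 22 of the 35 mitotic genes (62.86%) and in 8.973% of all genes. The variant TTTAAA was in 17.14% of the mitotic genes and 14.88% of all genes. Of the 12 genes that fell, 11 had a window, of which 8 held the CHR, 10 a CCAAT box and 8 both. Bub1, Ccnb1 and Melk lacked the CHR letters, and Ccnb1 held the variant at -42. A match of letters is a description of the window and does not show that a factor binds there.

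**Figure D3:**
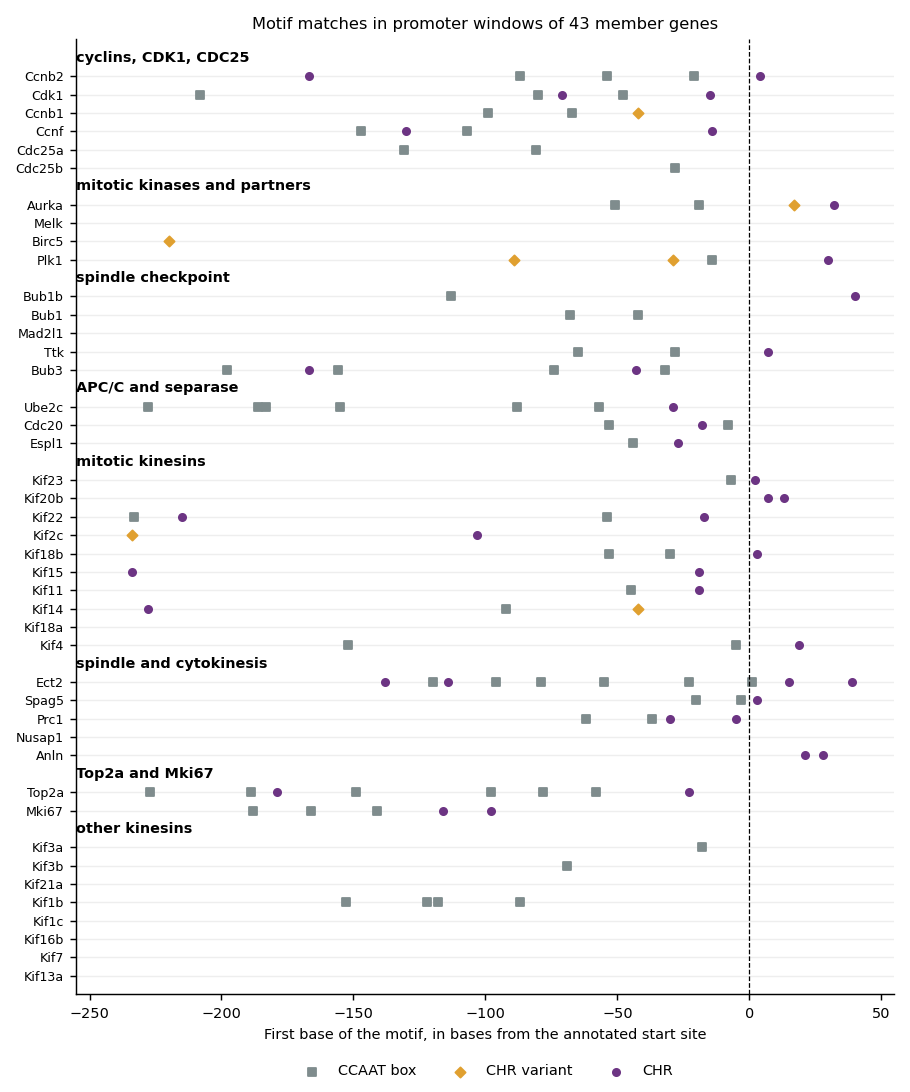
First base of each match to the CHR (circles), its variant (diamonds) and the CCAAT box (squares), in bases from the annotated start site (dashed line), in the promoter windows of 43 member genes. CHR matches appear in 26 of 35 mitotic genes and in none of the 8 other kinesins. Bub3, Ect2, Prc1 and Kif1b have 2 windows each, drawn on 1 row.

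Cyclins A and B, CDK1 and the CDC25 phosphatases set the timing of mitotic entry, and the cyclin F gene Ccnf is grouped with them here. Of these 8 genes, 3 fell (Cdk1, Ccnb1 and Ccnb2) and none rose. Beside this count and those of the later groups, 1.81% of all genes were called lower and 2.03% higher. All 8 totals were lower, and the median log2 ratio of the totals was -0.85. Cdk1 (GRCm38 chromosome 10, 69335146 to 69352938, minus strand), the kinase that starts mitosis, had a coding transcript at 13.1 with simvastatin and 25.9 in control (1.98-fold lower, adjusted p = 0.038 in the authors' deposited table). That was the smallest adjusted p among the members. A short Cdk1 model with a retained intron had 2.64 with simvastatin and 5.87 in control in the authors' deposited table (adjusted p = 0.096).

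Ccnb1 (chromosome 13, 100778650 to 100786570, minus strand), cyclin B1, had 15.2 with simvastatin and 28.5 in control for its main coding transcript in the authors' deposited table, a 1.87-fold fall (adjusted p = 0.042). Its other 4 transcripts were all lower with simvastatin too, and their adjusted p-values in the authors' deposited table ran from 0.11 upward. Ccnb2 (chromosome 9, 70407692 to 70421547, minus strand), cyclin B2, fell to 23.0 with simvastatin, against 49.9 in control, which is 2.17-fold (adjusted p = 0.042 in the authors' deposited table). Annotated pseudogenes named Ccnb1-ps and Ccnb2-ps exist, and how reads shared with them were counted is not stated in the sources used here, so both values are uncertain to that extent. Ccna2, cyclin A2, was split over 5 transcripts with totals of 25.6 with simvastatin and 49.0 in control, and none of them passed (adjusted p from 0.455 up in the authors' deposited table). The cyclin F gene Ccnf had totals of 12.1 with simvastatin and 20.4 in control, and 1 of its 3 transcripts was listed at 0 with simvastatin.

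Among the CDC25 phosphatases, which activate CDK1, the values were lower for all 3 genes and none passed. Cdc25c had 6.86 with simvastatin and 11.6 in control (1.69-fold lower, adjusted p printed as 0.05 in the authors' deposited table). Cdc25a had 12.84 with simvastatin and 19.75 in control (adjusted p = 0.09 in the authors' deposited table). Cdc25b had 12.03 with simvastatin and 17.19 in control (adjusted p = 0.131 in the authors' deposited table).

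The mitotic kinases and their partners gave the lowest median for a group of more than 3 genes, a log2 ratio of -1.04 over 6 totals, all of them lower. Aurkb (chromosome 11, 69045647 to 69051664, plus strand), the kinase of the chromosomal passenger complex that corrects faulty attachments, fell to 15.1 with simvastatin, against 31.3 in control (2.08-fold, adjusted p = 0.042 in the authors' deposited table). Melk (chromosome 4, 44300876 to 44364675, plus strand), a kinase that is abundant in dividing and tumour cells, fell to 6.83 with simvastatin, against 15 in control (2.20-fold, adjusted p = 0.042 in the authors' deposited table). Birc5, which encodes survivin, the passenger complex subunit that also inhibits apoptosis, had 33.7 with simvastatin and 69.3 in control, a fold of 2.06 that did not pass (adjusted p = 0.082 in the authors' deposited table). Plk1, the polo-like kinase of centrosomes and kinetochores, had 19.7 with simvastatin and 40.1 in control (2.03-fold lower, adjusted p = 0.071 in the authors' deposited table). These folds are close to that of Aurkb, and a p over the threshold does not show that the values were alike.

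Aurka, the centrosomal Aurora kinase, had the second lowest total of the 51 genes by ratio, 19.9 with simvastatin and 44.7 in control (log2 ratio -1.17). It was divided among 3 coding transcripts, all lower, and the adjusted p was 0.228, 0.339 and 0.824 in the authors' deposited table. Tpx2, the spindle protein that activates Aurora A, had totals of 19.5 with simvastatin and 34.1 in control, over 5 transcripts of which 3 were lower and 2 slightly higher.

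In the spindle checkpoint, which holds back anaphase, 1 of 5 genes fell, none rose and all 5 totals were lower (median log2 ratio -0.71). Bub1 (chromosome 2, 127801122 to 127831865, minus strand), the kinetochore kinase that recruits the other checkpoint proteins, fell to 11.36 with simvastatin, against 21.04 in control (1.85-fold, adjusted p = 0.049 in the authors' deposited table). Its second, assembled transcript had 11.2 with simvastatin and 18.3 in control (adjusted p = 0.079 in the authors' deposited table). Bub1b, which encodes the APC/C inhibitor BUBR1, had 15.4 with simvastatin and 27.0 in control (1.75-fold lower, adjusted p = 0.083 in the authors' deposited table). Mad2l1, the MAD2 subunit of the same inhibitor, had 19.2 with simvastatin and 34.0 in control for its main transcript (1.77-fold lower, adjusted p = 0.181 in the authors' deposited table). Bub3, the checkpoint protein that BUB1 and BUBR1 bind, had a total lower by 1.35-fold. Ttk, the checkpoint kinase MPS1, had one lower by 1.61-fold.

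Of the 3 genes that end the checkpoint 1 fell, and all 3 totals were lower. Cdc20 (chromosome 4, 118432901 to 118437352, minus strand), the APC/C activator, fell to 22.3 with simvastatin, against 49.7 in control, the largest fold among the called transcripts (2.22-fold, adjusted p = 0.049 in the authors' deposited table). Ube2c, the ubiquitin-conjugating enzyme that works with the APC/C, had the lowest total of all members by ratio, 24.0 with simvastatin and 54.4 in control, and missed the threshold (2.26-fold lower, adjusted p = 0.064 in the authors' deposited table). Espl1, the separase that cuts cohesin, had totals of 6.66 with simvastatin and 11.3 in control over 4 transcripts, all lower and none called.

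Kinesins are motors that walk along microtubules, some of them in the spindle and others with cargo such as vesicles and organelles. Of the 11 mitotic kinesin genes 3 fell, and all 15 of their transcripts had lower values with simvastatin. The authors' own call, which took 7.52% of all genes as lower, covered 9 of the 11. The totals ranged from a log2 ratio of -1.03 (Kif23) to -0.62 (Kif4), with a median of -0.83.

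Kif11 (chromosome 19, 37376403 to 37421859, plus strand), or Eg5, which pushes the spindle poles apart, fell to 11.2 with simvastatin, against 18.8 in control (1.68-fold, adjusted p = 0.042 in the authors' deposited table). Kif22 (chromosome 7, 127027729 to 127042471, minus strand), or Kid, which moves chromosome arms toward the equator, fell to 14.2 with simvastatin, against 27.2 in control (1.91-fold, adjusted p = 0.048 in the authors' deposited table). Kif14 (chromosome 1, 136466343 to 136531511, plus strand), a motor of cytokinesis, fell to 4.34 with simvastatin, against 7.12 in control (1.64-fold, adjusted p = 0.042 in the authors' deposited table). An annotated pseudogene shares the name of Kif22, and processed pseudogenes overlap Kif11 and Kif14 on the same strand.

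Other spindle motors were lower without passing. Kif20a, which brings the passenger complex to the midzone, had an assembled transcript at 10.6 with simvastatin and 20.6 in control (1.94-fold lower, adjusted p = 0.066 in the authors' deposited table). Kif23, the motor of centralspindlin, had 2 assembled transcripts, at 4.62 and 2.33 with simvastatin and 9.69 and 4.50 in control. Their adjusted p-values in the authors' deposited table were 0.078 and 0.05. The microtubule depolymerase Kif2c had 8.71 with simvastatin and 15.6 in control (adjusted p = 0.094 in the authors' deposited table). Kif15, which backs up Kif11, had 6.47 with simvastatin and 11.5 in control (adjusted p = 0.116 in the authors' deposited table).

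The other 11 kinesins mostly had higher values, though only 1 of their transcripts was called. Their totals were higher with simvastatin for 10 genes and lower for 1, with log2 ratios from -0.26 (Kif5b) to 0.77 (Kif13b) and a median of 0.41. Kif1b, Kif7, Kif16b and Kif21a lay within this range and had no called transcript. The median was 0.08 when each gene was represented by its most abundant transcript and 0.55 with Ensembl transcripts alone, so its size depends on how transcripts are combined. After scaling to the same overall total, 10 totals were still higher and 1 lower, beside 5621 and 2884 over all genes. Of their 28 transcripts the adjusted p called 1 higher and 0 lower, beside 1.11% and 0.987% of all transcripts. At an unadjusted p under 0.05, 6 were higher and 1 lower, beside 9.42% and 10.2% of all transcripts.

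The 1 that rose was the coding transcript of Kif3b (chromosome 2, 153291413 to 153333390, plus strand), a motor subunit of kinesin-2, which carries cargo along the axoneme of cilia. It had 16.3 with simvastatin and 11.2 in control (1.45-fold, adjusted p = 0.042 in the authors' deposited table), which is under the fold of 1.5 in the authors' own call. An assembled Kif3b transcript went the other way, with 0.03 with simvastatin and 1.70 in control (adjusted p = 0.602 in the authors' deposited table). Its partner subunit gene Kif3a had totals of 11.4 with simvastatin and 10.6 in control.

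Kif5b, the conventional kinesin heavy chain, was the 1 gene of this group with a lower total, 62.4 with simvastatin and 75.0 in control (1.20-fold lower, adjusted p = 0.136 in the authors' deposited table). Kif21b had totals of 40.1 with simvastatin and 31.6 in control over 4 assembled transcripts, all higher with simvastatin and none called. Kif1c, a carrier of vesicles, had totals of 39.8 with simvastatin and 27.7 in control, and its 4 transcripts were all higher, with the smallest adjusted p at 0.059 in the authors' deposited table. The largest ratios of this group belonged to the kinesin-3 motors Kif13a and Kif13b. The Kif13a total was 6.79 with simvastatin and 3.99 in control, and that of Kif13b was 6.57 with simvastatin and 3.84 in control. One Kif13b transcript, at 2.95 with simvastatin, was listed at 0 in control, so the Kif13b total rests on it.

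Of the 5 genes of spindle structure and cytokinesis, 1 fell and all 5 totals were lower (median log2 ratio -0.77). Spag5 (chromosome 11, 78301529 to 78322457, plus strand), or astrin, which stabilises the attachment of chromosomes to the spindle, fell to 9.23 with simvastatin, against 16.04 in control (1.74-fold, adjusted p = 0.049 in the authors' deposited table). Anln, the actin and septin scaffold of the contractile ring, had its main transcript at 28.3 with simvastatin and 39.7 in control (1.40-fold lower, adjusted p = 0.132 in the authors' deposited table). The Anln total changed least among the totals of the mitotic genes (log2 ratio -0.37). Prc1, which bundles microtubules at the midzone, and Nusap1, which binds spindle microtubules, had totals lower by 1.70-fold and 1.34-fold.

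Top2a and Mki67 are both used as proliferation markers. Top2a (chromosome 11, 98992943 to 99024189, minus strand), the topoisomerase that untangles chromosomes, fell in 2 transcripts. The coding one had 65.2 with simvastatin and 109.6 in control (1.68-fold, adjusted p = 0.042 in the authors' deposited table). A short noncoding model had 5.38 with simvastatin and 9.26 in control (1.72-fold, adjusted p = 0.042 in the authors' deposited table), and a second one had 28.4 with simvastatin and 54.0 in control (adjusted p = 0.053 in the authors' deposited table). Mki67, which encodes the Ki-67 antigen that coats mitotic chromosomes, had totals of 21.3 with simvastatin and 34.6 in control. It was spread over 7 transcripts, of which 6 were lower, 1 was higher and none was called (adjusted p of 0.315 or more in the authors' deposited table).

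The transcripts of a gene did not always move the same way. The 19 genes with a single transcript were all lower. Of the 32 genes with several, 13 had all transcripts lower, 3 had all higher and 16 had transcripts in both directions. The examples that follow were chosen after their values were seen. In Ect2, the exchange factor that activates RhoA at the division site, the main coding transcript Ect2-207 had 8.77 with simvastatin and 22.5 in control (2.56-fold lower, adjusted p = 0.219 in the authors' deposited table). Ect2-201, annotated in GENCODE as a retained intron model of 19 exons and 2228 bases, had 3.94 with simvastatin and 2.19 in control (1.80-fold higher, adjusted p = 0.108 in the authors' deposited table). It was Ect2-201 that the authors' own call took, so the gene stands among their higher genes although its total was 17.7 with simvastatin and 32.5 in control.

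Bub3 showed a split of another kind. The coding transcript Bub3-201 had 19.1 with simvastatin and 14.9 in control, while the retained intron model Bub3-207 had 11.3 with simvastatin and 18.7 in control, and neither passed (adjusted p = 0.979 and 0.517 in the authors' deposited table). The kinase gene Ttk had its coding transcript at 3.27 with simvastatin and 7.83 in control, while a retained intron model had 2.02 with simvastatin and 0.66 in control (adjusted p = 0.423 and 0.774 in the authors' deposited table). Reads shared between transcripts of a gene are divided by a model, and the error of that division was not tested.

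**Figure D4:**
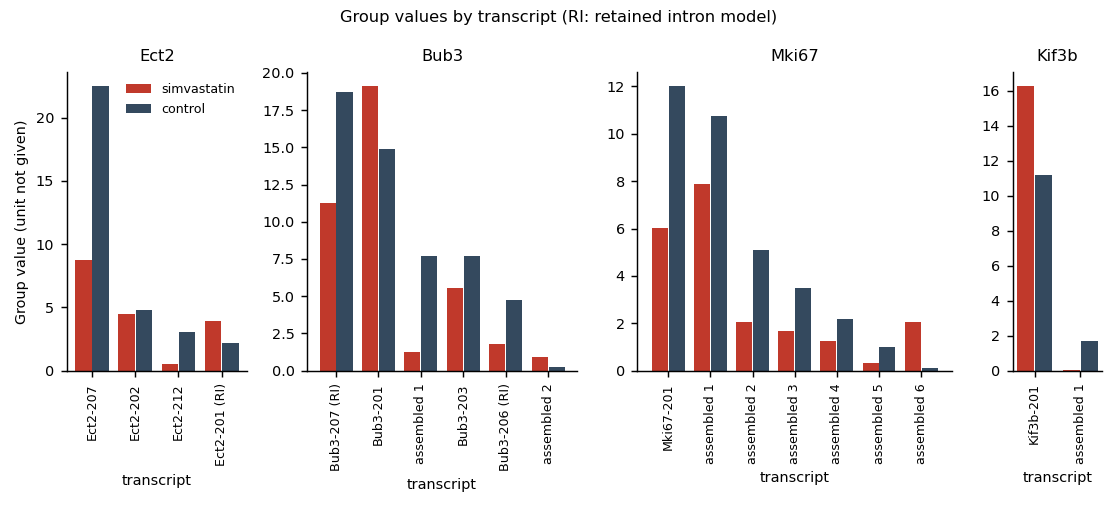
Group values of each transcript of Ect2, Bub3, Mki67 and Kif3b (bars from 0, unit not given), simvastatin left and control right. RI marks a retained intron model and assembled a transcript built from the reads. Ect2-207 is lower with simvastatin (8.77 against 22.5) while the retained intron model Ect2-201 is higher (3.94 against 2.19).

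A wider list of mitosis genes outside these names, covering kinetochore, passenger complex, APC/C subunit, spindle, tubulin and cell cycle transcription factor genes, also had mostly lower values. Of its 93 names 82 were listed. The adjusted p called 5 genes lower and 0 higher, beside 1.81% of all genes called lower and 2.03% called higher. Its totals were lower for 66 genes and higher for 16, beside 48.3% and 51.7% of all gene totals. Their median log2 ratio was -0.62, against 0.02 for all genes. After scaling to the same overall total these counts were 58 and 24, beside 2884 and 5621 over all genes. The APC/C subunit genes of the list went both ways and none was called. Cdc16 had 25.06 with simvastatin and 23.47 in control, and Anapc11 had 28.38 with simvastatin and 29.92 in control. The totals of Anapc1, Anapc4, Anapc7, Anapc11 and Cdc27, lower before scaling, were higher after it. Kifc1, a kinesin that bundles spindle microtubules at the poles, had 12.17 with simvastatin and 21.53 in control (1.77-fold lower, adjusted p = 0.138 in the authors' deposited table).

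Tuba1b, an alpha tubulin gene, fell to 102.8 with simvastatin, against 170.3 in control (1.66-fold, adjusted p = 0.038 in the authors' deposited table). The tubulin genes Tuba1c, Tubb4b and Tubb5 were lower by smaller folds of 1.33, 1.40 and 1.19. None of these was called (adjusted p = 0.235, 0.107 and 0.075 in the authors' deposited table). Fam83d, a spindle protein that works with Kif22, fell to 6.31 with simvastatin, against 13.3 in control (2.12-fold, adjusted p = 0.042 in the authors' deposited table). Wee1, the kinase that opposes CDC25 and holds CDK1 inactive, fell as well, to 7.22 with simvastatin, against 12.9 in control (1.79-fold, adjusted p = 0.042 in the authors' deposited table). Ska2, a kinetochore protein, fell to 9.71 with simvastatin, against 17.97 in control (1.85-fold, adjusted p = 0.045 in the authors' deposited table). Cks2, a small CDK-binding subunit, was the remaining called gene. In the authors' own call, 35 genes of this list were lower and 1 was higher, beside 7.52% of all genes lower and 8.58% higher.

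The authors' enrichment tables, made from their own calls, hold 68 terms for lower and 80 for higher genes. They restate the calls above and are no separate evidence. Members stand in 28 of the 68 lower terms and in 11 of the 80 higher ones. The lower term cell cycle counted 95 genes, 20 of them members. In the term for assembly of the spindle midzone 4 of 5 genes were members (Aurkb, Birc5, Kif23 and Prc1), with a fold enrichment of 30.4 and an adjusted p of 0.000593 in the authors' deposited table. The KEGG term motor proteins held 9 mitotic kinesins among its 18 genes. Cytoskeleton appears on both sides, with 90 genes and 18 members among the lower terms and 83 genes and 4 members, Ect2, Kif1c, Kif13a and Kif16b, among the higher ones. Kif16b, a motor of early endosomes, stands there although neither of its transcripts has the authors' call, and its main one had 8.47 with simvastatin and 5.05 in control (adjusted p = 0.24 in the authors' deposited table).

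In a deposited list of 46 transcripts that the authors link to aggressiveness, 43 have positive and 3 negative folds, and 2 members appear. Plk1 is entered as 2.03-fold lower (adjusted p = 0.071 in the authors' deposited table). Ect2 is entered as 1.80-fold higher (adjusted p = 0.108 in the authors' deposited table), through the retained intron model described above.

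The authors also set their mouse genes beside an outside signature of A375, a human melanoma line, given 10 µM simvastatin for 24 h, a higher dose than the 3.5 µM used on B16.F10. The A375 values are z-scores with no replicate in this series, and no test was made on them. The table lists 158 entries, all with an adjusted p under 0.05 in the mouse cells, and 10 of them are members. The z-score was negative for 9 of the 10 members (90%) and for 68 of all 158 entries (43.04%). Of the 64 entries with a negative mouse log2 fold change, which include all 10 members, 46 had a negative z-score. The members' median z-score was -5.70, against 0.27 for all entries, whose mouse changes go both ways. Of the 10 lowest z-scores, 6 belonged to members. The called genes Aurkb, Bub1 and Ccnb1 are not among the entries.

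TOP2A had the lowest z-score of the list, -9.22, followed by CDC20 at -8.28, CCNB2 at -7.42 and KIF14 at -6.56. CDK1 stood at -5.74, MELK at -5.67, SPAG5 at -3.82, KIF11 at -3.47 and KIF22 at -1.46. KIF3B was the exception with a positive z-score of 1.82. In the authors' deposited table of this comparison the mouse log2 fold change of Kif3b is -0.44, opposite in sign to its called transcript and to its total (log2 ratio 0.34). For all 37 listed genes with several transcripts, the deposited log2 fold change lay within 0.02 of the median, over the gene's transcripts, of the log2 ratio of group values with 1 added. The Kif3b entry therefore averages the transcript that rose with the assembled one at 0.03 with simvastatin and 1.70 in control.

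**Figure D5:**
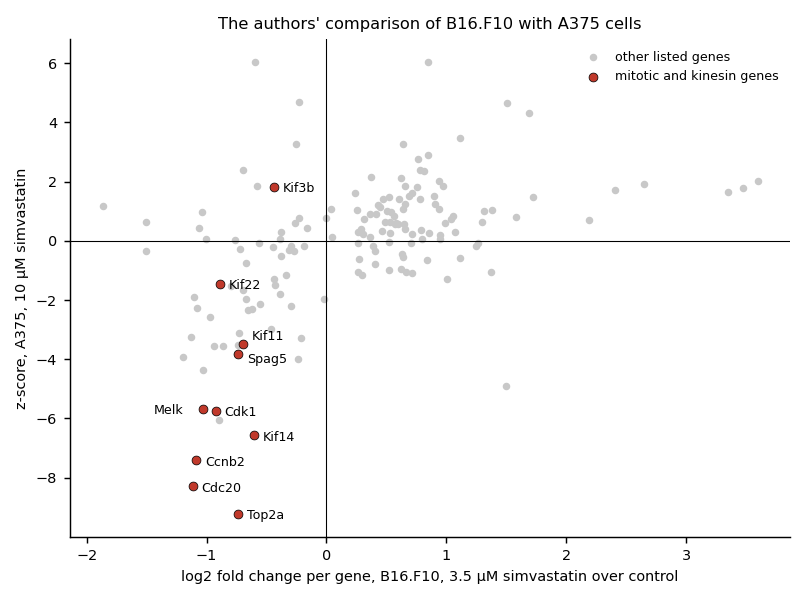
The z-score of each gene in A375 cells given 10 µM simvastatin against the authors' log2 fold change per gene in B16.F10, 3.5 µM simvastatin over control, for 158 entries. Of the 10 labelled members, 9 lie in the lower left, from a z-score of -1.46 (KIF22) to -9.22 (TOP2A), and Kif3b lies above 0 on the z axis.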

How the data were processed

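RNA was measured in 6 samples of B16.F10, 3 with simvastatin and 3 in control, grouped by their titles. Stranded total RNA libraries were made, per the labels' protocols. The submitters' processing notes name HISAT2 2.0.5, StringTie and the build GRCm38 (mm10). How values were counted, filtered and tested is not stated in the sources used here.

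The deposited signal values are 1 per group and transcript, in a unit that is not given. The deposited fold, a score signed negative where simvastatin was lower, is the ratio of these values, per the file headers. The deposited p-value and adjusted p-value are the authors' own, printed to 3 decimals. The comparison with A375 cells holds a log2 fold change per gene and a z-score, per the file headers. Term counts and fold enrichment are from DAVID, per the file headers. A further deposited table, an interaction network, holds no member gene and was not used.

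The members and gene lists were chosen with earlier results of these data known. No test could be refitted from 1 value per group, so the authors' adjusted p under 0.05 was used, and totals per gene have no test. Beyond the words biological replicate nothing says that samples came from separate cultures, so the p-values measure the spread between samples, which may be technical. Genes named are those with a called transcript, the 2 of highest mean total in each functional group, Mki67, Top2a, Ccnb1, Plk1, Bub1b and Kif11, and up to 4 of the wider list with the largest fold. Others were named after their values were seen. Transcript types and coordinates are from GENCODE mouse release 21, which held all 78 Ensembl transcripts of the members, and the other 40 were assembled models. A gene overlapped 13 member genes on the same strand and 25 on the opposite strand. Promoter windows were matched by symbol. Scripts ran in Python 3.11.15 with pandas 2.3.3 and were tested on simulated data. The alternatives tried were another threshold, the authors' call, a minimum mean value of 1, Ensembl transcripts alone, a recomputed Benjamini-Hochberg adjustment, the most abundant transcript, an added 1 and scaling to the same total.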

Additional observations from a re-analysis of the deposited data

How the results depend on the processing

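Counts of called members depended on the threshold. At an adjusted p under 0.1, 27 member transcripts of 22 genes were lower and 3 transcripts of 2 genes higher, beside 6.78% of all genes lower and 7.18% higher. In the authors' own call they were 33 of 26 genes and 3 of 3 genes. A Benjamini-Hochberg adjustment recomputed from the printed p-values, which are rounded to 3 decimals, gave 16 transcripts of 14 genes lower and 2 transcripts of 2 genes higher. All 14 called transcripts were kept, beside 3.5% of all genes lower and 3.92% higher. The effect of the rounding on these counts was not tested. In the wider mitosis list of 82 genes, 25 were lower and 1 higher at an adjusted p under 0.1, 35 and 1 in the authors' call, and 16 and 1 after the recomputed adjustment, beside the same shares of all genes and, for the authors' call, 7.52% and 8.58%. A minimum mean value of 1 and Ensembl transcripts alone left each count at an adjusted p under 0.05 as it was. The median log2 ratio of the member totals lay between -0.80 and -0.71 under the other choices and was -0.56 after scaling to the same total. Single totals changed direction under 2 choices among the members: Bub3, Kif7, Kif13a and Kif13b with the most abundant transcript, and Kif3a with Ensembl transcripts alone. In the wider list 8 totals changed direction with the most abundant transcript, 1 with Ensembl transcripts alone and 8 after scaling. No paired analysis was possible because the files give 1 value per group, and for the same reason no replicate could be left out and no error computed.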
